A study of Arabidopsis thaliana with 8 samples.

Results

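Transcripts of 6 genes of seed filling, 5 storage globulin genes and 1 oleosin gene, were followed in developing Arabidopsis thaliana seeds of ttg1 and of the wild type Ler. They were chosen by name, with earlier results of these data known, as PAP85, VCL, VCL2, VCL3, CRU2 and OLEO5. The arrays hold single-gene probe sets, those whose platform annotation lists 1 gene, for 13356 genes, and each of the 6 genes described below has 1. Only PAP85 carries its name in that annotation. The other 5 are listed in the annotation and in RefSeq by locus tag alone, and the names used for them here rest on general knowledge of these loci. AT2G28490, AT2G18540 and AT4G36700 are known as vicilin-like seed storage protein loci, and which of them is meant by VCL, VCL2 or VCL3 is not settled by the tables. AT3G01570 is known as the oleosin gene OLEO5. RefSeq gives the symbol CRU2 to AT1G03880, which has no single-gene probe set and was not analysed here. AT1G03890, the adjacent gene in RefSeq and itself known as a cruciferin locus, was described in its place.

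Total RNA was extracted from seeds taken out of the siliques between the globular and walking-stick stages of the embryo, biotin-labelled and read on ATH1 arrays (Affymetrix), each sample on an array of its own. There were 4 biological replicates of ttg1 and 4 of Ler, numbered 1 to 4 in the sample titles of each genotype. The labels name ttg1 by genotype only and the wild type as Ler (Landsberg erecta). They do not say whether arrays with the same number shared a culture, a harvest or a seed age, so the spread behind each p-value may be technical in part.

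The deposited log2 values are relative: each transcript is set against its own median over the 8 arrays. They show how arrays differ for 1 gene and hold no absolute level, so the genes could not be ranked by abundance, and no labelled tissue could be checked by the presence of its markers. In whole seeds, a smaller share of embryo cells and less RNA per cell cannot be told apart. TTG1 itself had no single-gene probe set. BAN and DFR, enzymes of proanthocyanidin synthesis in the seed coat, separated the genotypes: BAN lay between -3.45 and -3.02 in ttg1 and between 3.02 and 3.37 in Ler, and DFR between -3.9 and -3.24 in ttg1 and between 3.24 and 3.53 in Ler. Of all arrays, ttg1 replicate 4 lay farthest from its own genotype's mean (SD of its deviations over probe sets 0.245, against 0.115 to 0.184 in the other arrays).

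Seeds of Arabidopsis store nitrogen and sulphur in 12S globulins (cruciferins), 2S albumins and smaller amounts of vicilin-like globulins, which are made on the endoplasmic reticulum and laid down in protein storage vacuoles. Oleosins coat the oil bodies and keep them small and separate. Transcripts of both groups belong to the filling phase of the embryo, which follows pattern formation and is controlled by transcription factors such as LEC1, LEC2, FUS3 and ABI3, so that their level is commonly read as a sign of how far filling has gone.

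PAP85 (AT3G22640), a vicilin-like storage globulin, had log2 values of -1.05, 0.19, -0.19 and 2.17 in ttg1 replicates 1 to 4, against -1.02, -0.41, 0.29 and 2.28 in Ler replicates 1 to 4. Replicate 4 was the highest array and replicate 1 the lowest in each genotype, and the groups overlapped over nearly their whole range. The distance from the lowest to the highest of the 8 arrays was 3.33 on the log2 scale. The mean over 4 arrays was 0.28 ± 1.36 in ttg1, against 0.28 ± 1.43 in Ler (± SD).

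AT2G28490, a second vicilin-like locus, behaved in a similar way over the arrays. Its log2 values were -0.61, 0.12, -0.12 and 1.66 in ttg1 replicates 1 to 4, against -1.4, -0.31, 0.47 and 1.46 in Ler replicates 1 to 4. Again replicate 4 was highest and replicate 1 lowest in both genotypes. Its mean over 4 arrays was 0.26 ± 0.98 in ttg1, against 0.05 ± 1.21 in Ler (± SD), and the 8 arrays spanned an 8.36-fold range.

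The remaining vicilin-like loci varied much less. AT2G18540 had log2 values of -0.28, -0.26, -0.29 and 0.52 in ttg1 replicates 1 to 4, against -0.1, 0.46, 0.1 and 0.15 in Ler replicates 1 to 4. Replicate 4 stood above the rest in ttg1 only; in Ler the highest array was replicate 2. The spread of the 8 arrays was 1.74-fold, and the mean over 4 arrays was -0.08 ± 0.4 in ttg1, against 0.15 ± 0.23 in Ler (± SD).

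AT4G36700 had log2 values of -0.01, -0.12, -0.45 and 0.01 in ttg1 replicates 1 to 4, against 0.27, 0.48, 0.19 and -0.02 in Ler replicates 1 to 4. Here replicate 4 was the lowest Ler array and, by a narrow margin, the highest ttg1 array. The groups overlapped only through Ler replicate 4, which lay among the ttg1 values. The mean over 4 arrays was -0.14 ± 0.21 in ttg1, against 0.23 ± 0.21 in Ler (± SD), and the 8 arrays spanned a 1.9-fold range.

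The cruciferin locus AT1G03890 had log2 values of 0.16, -0.08, -0.15 and 0.65 in ttg1 replicates 1 to 4, against -0.39, -0.2, 0.08 and 2.06 in Ler replicates 1 to 4. Replicate 4 was the highest array of each genotype, but by unequal amounts. It stood 0.67 above the mean of replicates 1 to 3 in ttg1 (1.59-fold) and 2.23 above it in Ler (4.7-fold). The mean over 4 arrays was 0.15 ± 0.36 in ttg1, against 0.39 ± 1.13 in Ler (± SD).

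The oleosin locus AT3G01570 had log2 values of -0.72, -0.03, -0.39 and 0.74 in ttg1 replicates 1 to 4, against -0.76, 0.03, 0.2 and 0.32 in Ler replicates 1 to 4. Replicate 1 was lowest and replicate 4 highest in both genotypes, with a narrow step between replicates 3 and 4 in Ler. The mean over 4 arrays was -0.1 ± 0.63 in ttg1, against -0.05 ± 0.49 in Ler (± SD), and the arrays spanned a 2.83-fold range.

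**Figure D1:**
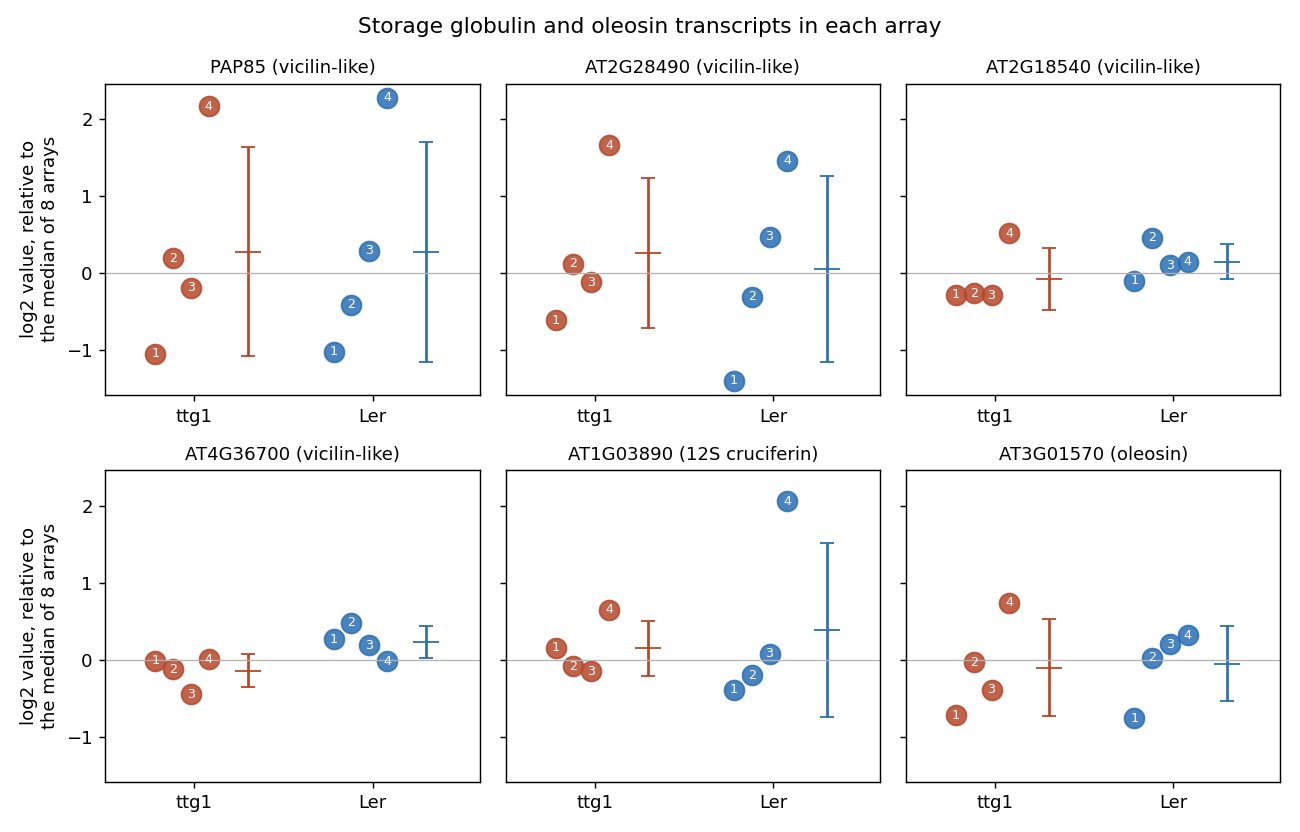
Log2 value of each of the 6 genes, relative to its median over the 8 arrays, in ttg1 (left) and Ler (right); each point is 1 array and carries its replicate number, and the bars show the mean and SD of 4 arrays. Replicate 4 stands above all other arrays in both genotypes for PAP85 (2.17 in ttg1, 2.28 in Ler) and AT2G28490 (1.66 in ttg1, 1.46 in Ler), while AT4G36700 stays between -0.45 and 0.48.

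The comparison of ttg1 with Ler asks whether storage transcripts of the developing seed differ when TTG1, a WD40-repeat regulator of seed coat and epidermal traits, is mutated. None of the 6 genes passed the test in limma at a Benjamini-Hochberg adjusted p under 0.05 over all 22746 probe sets, of which 5.72% passed (1.76% higher and 3.96% lower in ttg1). At an unadjusted p under 0.05 in limma, 1 of the 6 passed, and 5231 of all probe sets (23.0%). The test without moderated variances called 0 of the 6. Over all probe sets it called fewer, 168 higher and 409 lower in ttg1, against 400 and 900 with moderation.

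The largest difference relative to its error was that of AT4G36700, at -0.37 ± 0.13 (log2 difference ttg1 minus Ler with SE, n = 4 each, from limma), a ratio of 0.774. Its limma p was 0.0171 before and 0.129 after adjustment, and the exact two-sided permutation test over 70 assignments gave p = 0.086, where the smallest possible is 0.0286. With array weights, which give ttg1 replicate 4 the lowest weight (0.348), the log2 change was -0.5 and the adjusted p in limma 0.0408. For AT2G18540 the log2 difference was -0.23 ± 0.19 (adjusted p 0.485 in limma).

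For the 4 genes with the widest spread, the fit without replicate number leaves room for large differences in either direction. The log2 change of PAP85 was 0.00 ± 0.75, with a 95% interval from -1.66 to 1.65 (adjusted p 0.998 in limma). That of AT2G28490 was 0.21 ± 0.59, with an interval from -1.1 to 1.51 (adjusted p 0.865 in limma). AT1G03890 had -0.24 ± 0.45, with an interval from -1.24 to 0.76 (adjusted p 0.789 in limma), and AT3G01570 had -0.05 ± 0.31, with an interval from -0.73 to 0.63 (adjusted p 0.939 in limma). Leaving out 1 array gave differences between -0.63 and 0.66 for PAP85, and it changed the sign of the other 3. Without Ler replicate 4 the difference was 0.32 for AT1G03890, without ttg1 replicate 4 it was -0.26 for AT2G28490, and without ttg1 replicate 1 it was 0.16 for AT3G01570. These intervals include a halving as well as a doubling for PAP85 and AT2G28490, so the results do not show that ttg1 and Ler are alike. With the replicate number as a block the differences were the same. Their SE was then 0.15 for PAP85, 0.18 for AT2G28490, 0.25 for AT1G03890 and 0.15 for AT3G01570. The width of the intervals thus depends on leaving the replicate number out. The labels tie that number to no shared source, so no conclusion was drawn from the smaller errors.

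In none of the 6 genes did the ttg1 values lie wholly apart from the Ler values, which was the case in 14.8% of all probe sets. The median log2 change of the 6 genes was -0.14, against 0.03 over all probe sets.

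**Figure D2:**
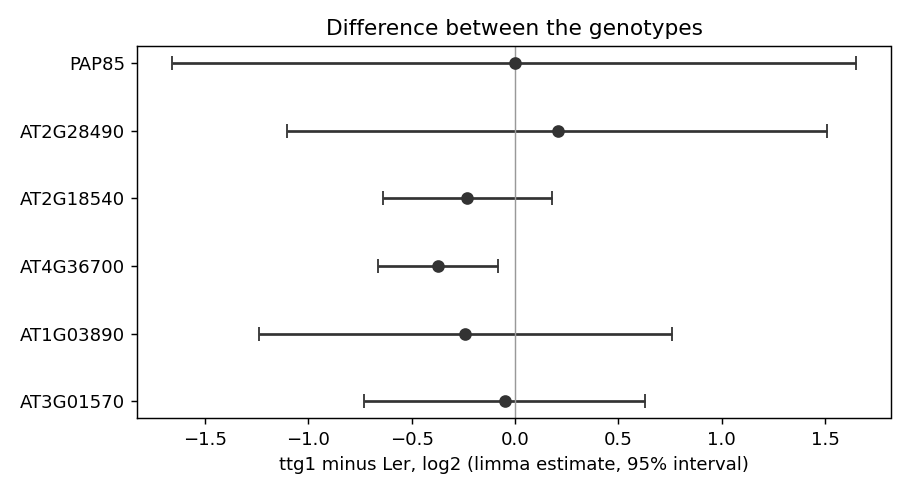
Difference ttg1 minus Ler of each gene on the log2 scale, as the limma estimate with its 95% interval (4 arrays per group). The interval of AT4G36700, from -0.66 to -0.08, is the only one of the 6 that leaves out 0 before adjustment over all probe sets.

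Within the genotypes the spread was the more marked feature. The residual SD in limma was 1.4 for PAP85, the sixth highest of all 22746 probe sets by rank, 1.1 for AT2G28490, 0.84 for AT1G03890 and 0.56 for AT3G01570. It was 0.33 for AT2G18540 and 0.21 for AT4G36700, against a median of 0.15 over all probe sets. Thus the residual SD of PAP85, AT2G28490, AT1G03890 and AT3G01570 was higher than that of at least 99.3% of the probe sets, that of AT2G18540 higher than 94.4% and that of AT4G36700 higher than 76.3%.

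In several of the genes replicate 4 lay far above the others. Relative to the mean of replicates 1 to 3, it was 2.52 higher on the log2 scale in ttg1 and 2.66 higher in Ler for PAP85 (5.74-fold and 6.31-fold). For AT2G28490 it was 1.87 higher in each genotype (3.65-fold in ttg1 and 3.66-fold in Ler). For AT3G01570 it was 1.12 higher in ttg1 and 0.5 higher in Ler. Replicate 4 was the highest array of both genotypes in 4 of the 6 genes, PAP85, AT2G28490, AT1G03890 and AT3G01570, against 12.5% of all probe sets. In ttg1 alone it was highest in 6 of the 6 genes, against 34.7% of all probe sets. Replicate 1 was the lowest array of both genotypes in 3 genes, PAP85, AT2G28490 and AT3G01570, against 7.81% of all probe sets. The 6 genes were chosen with earlier results of these data known. These counts and the residual SD therefore describe the pattern and are no independent evidence for it.

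The replicate number was tested with limma's moderated F test in a model that also holds the genotype, adjusted over all probe sets. It groups arrays by the number in their titles, which the labels tie to no shared source. PAP85 (F = 81.21, adjusted p 0.0047 in limma) and AT2G28490 (F = 33.09, adjusted p 0.0371 in limma) passed, 2 of the 6 genes, against 15 of 22746 probe sets (0.0659%). At an unadjusted p under 0.05, 4 of the 6 genes and 1704 of all probe sets (7.49%) passed. AT3G01570 had an adjusted p of 0.304, AT1G03890 0.44, AT2G18540 0.785 and AT4G36700 0.891 in limma. That replicate 4 of PAP85 stood out in both genotypes was known from an earlier analysis of these data when this test was chosen, so the test describes the pattern and is no independent evidence for it.

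The calls by replicate number changed when single arrays were left out. Such a fit holds only 1 array for the number of the omitted array and has less power. A lost call therefore does not show that the omitted array carried the pattern. Leaving out 1 array gave F from 38.96 to 154.75 for PAP85 (81.21 with all arrays). For AT2G28490 it gave F from 17.73 to 82.86 (33.09 with all arrays), with 37.92 without ttg1 replicate 1. Without ttg1 replicate 1 the adjusted p in limma was 0.196 for PAP85 and 0.199 for AT2G28490, without ttg1 replicate 4 0.105 and 0.357, without Ler replicate 1 0.282 and 0.451, and without Ler replicate 4 0.144 and 0.218. AT2G28490 also missed the threshold without ttg1 replicate 2 (0.166) and without Ler replicate 2 (0.193). With quantile normalization the adjusted p of PAP85 and AT2G28490 was 0.14 and 0.432, with array weights 0.0513 and 0.196, and without moderated variances 0.937 for each; AT2G28490 had 0.0647 when only single-gene probe sets were tested. Without replicate 3 of ttg1 and of Ler, F was 111.34 and 114.25 for PAP85 and 82.86 and 82.42 for AT2G28490. For AT3G01570 it was 21.95 and 22.31 (12.88 with all arrays). More of all probe sets were called in these fits as well, so nothing particular to these genes was read from the rise.

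Set side by side by replicate number, which does not make them pairs, the arrays gave differences ttg1 minus Ler of different signs. For PAP85 it was -0.03, 0.6, -0.48 and -0.11 for numbers 1 to 4, and for AT2G28490 0.79, 0.42, -0.58 and 0.2. For AT4G36700 it was -0.28, -0.6, -0.63 and 0.03, so that ttg1 lay below Ler for the first 3 numbers and at the same value for number 4. For AT1G03890 the difference was 0.55, 0.12, -0.22 and -1.41, with number 4 the farthest from 0.

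PAP85, AT2G28490 and AT3G01570 varied together over the arrays, and no relation with them was found for AT4G36700. With 8 arrays a moderate correlation can be missed. The permutation test used below treats the arrays as exchangeable, which the labels do not settle. Correlations were computed for 15 pairs of genes over the 8 arrays, which share their labelling and normalization. Since the arrays of replicate 4 lie apart for several genes, each correlation is also given over the other 6 arrays. PAP85 and AT2G28490 had a Pearson r of 0.96 and a Spearman rho of 0.95 over 8 arrays (exact permutation test adjusted over 15 pairs, p = 0.00223 and p = 0.0167). Over the 6 arrays without replicate 4, their r was 0.91 and their rho 0.94 (exact permutation test, adjusted p = 0.0417 and p = 0.25), so the rank correlation missed the threshold there.

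The oleosin AT3G01570 followed the same pair of vicilin-like loci. Its r was 0.92 with AT2G28490 and 0.88 with PAP85 over 8 arrays (rho 0.93 and 0.88; exact permutation test, adjusted p for r 0.0147 and 0.0177, for rho 0.0167 and 0.0362). Without replicate 4, r was 0.84 and 0.88, but with 6 arrays neither passed after adjustment (exact permutation test, adjusted p 0.167 and 0.172).

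The cruciferin AT1G03890 correlated by r with the vicilin-like pair over 8 arrays, with PAP85 mainly through replicate 4. Its r over 8 arrays was 0.82 with PAP85 and 0.76 with AT2G28490 (exact permutation test, adjusted p 0.0318 and 0.0443), with rho of 0.64 and 0.74 (exact permutation test, adjusted p 0.206 and 0.138). Without the replicate 4 arrays, which are also the 2 arrays farthest from the median of PAP85 and of AT2G28490, r was 0.24 with PAP85 and 0.58 with AT2G28490 (exact permutation test, adjusted p 0.803 and 0.615). The relation of AT1G03890 with PAP85 therefore rests on those arrays.

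AT4G36700 showed no positive relation with PAP85 (r = -0.19), AT2G28490 (r = -0.23) or AT1G03890 (r = -0.16), none of them past the threshold (exact permutation test, adjusted p = 0.693 each). AT2G18540 lay between the groups, with r of 0.55 with PAP85, 0.75 with AT3G01570 and 0.58 with AT4G36700, none past the threshold either (exact permutation test, adjusted p 0.258, 0.092 and 0.258). Without replicate 4 its r with AT4G36700 was 0.82 (exact permutation test, adjusted p 0.172). In all, 5 of the 15 pairs passed for r and 3 for rho over 8 arrays, and 1 and 0 over the 6 arrays.

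**Figure D3:**
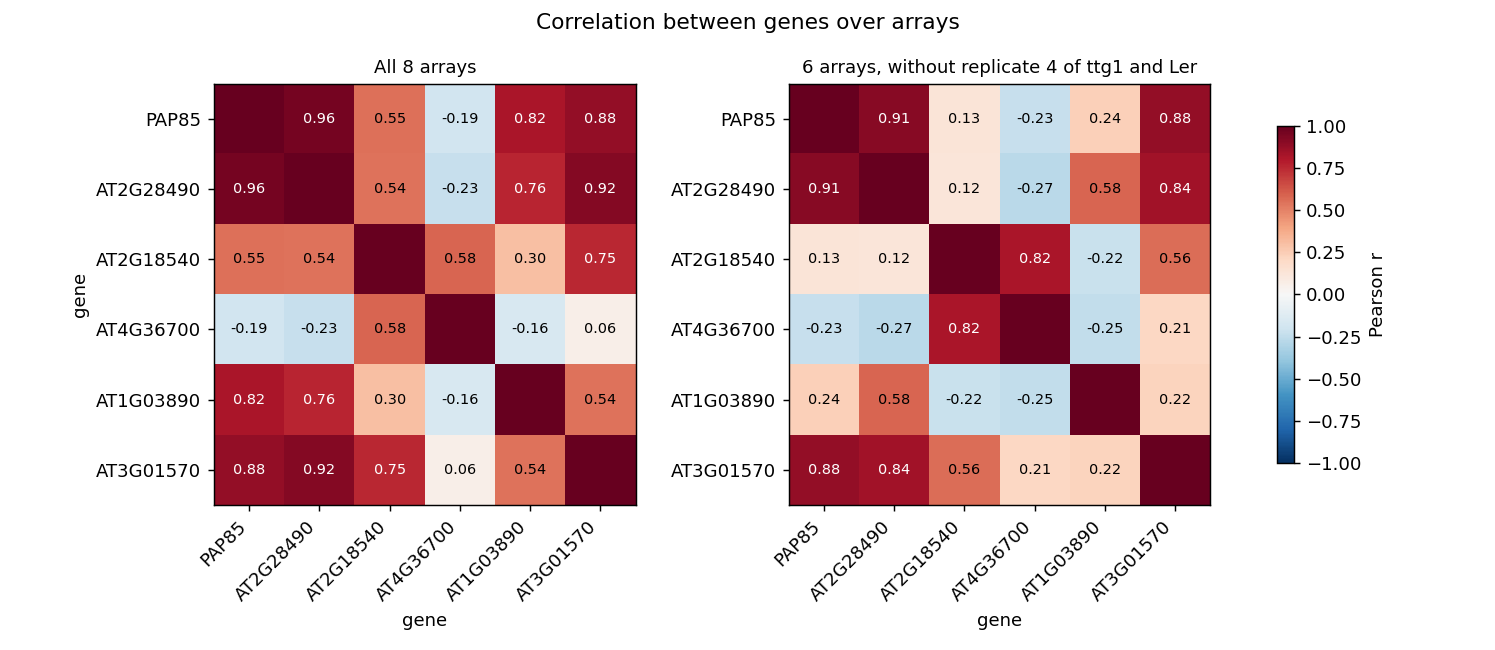
Pearson correlation between each pair of the 6 genes over all 8 arrays (left) and over the 6 arrays without replicate 4 of ttg1 and Ler (right), with red for positive and blue for negative values. PAP85, AT2G28490 and AT3G01570 stay at 0.84 or above with each other in both panels, while the correlation of PAP85 with AT1G03890 is 0.82 on the left and 0.24 on the right.

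Other genes of the filling programme were taken from lists of known genes, chosen like the 6 genes with earlier results of these data in view. Of 12 oil body genes (oleosins, caleosins and relatives) 4 were measured by a single-gene probe set, 1 of them AT3G01570. None of the 4 passed between genotypes or by replicate number in limma; at an unadjusted p under 0.05, 0 passed between genotypes and 4 by replicate number, against 23.0% and 7.49% of all probe sets, the background also for the unadjusted counts of the lists that follow. OLEO3, an oleosin, had log2 values of -0.34, 0.07, -0.1 and 0.68 in ttg1 replicates 1 to 4, against -0.52, -0.07, 0.39 and 0.48 in Ler replicates 1 to 4. AT3G18570, a known oleosin locus, reached 1.36 in replicate 4 of ttg1 and 0.53 in replicate 4 of Ler, the highest array of each genotype, with its lowest values in replicate 1 (-0.29 in ttg1 and -0.8 in Ler). In AT2G25890, likewise an oleosin locus, the highest array was replicate 4 in ttg1 (0.48) and replicate 3 in Ler (0.47).

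Of 9 genes of storage protein sorting and cleavage 5 were measured, and none passed in either test in limma (unadjusted p under 0.05 for 1 between genotypes and 2 by replicate number). BETA-VPE (AT1G62710), the seed-type vacuolar processing enzyme that cleaves storage protein precursors, had log2 values of -0.27, 0.11, -0.15 and 0.72 in ttg1 replicates 1 to 4, against -0.79, -0.11, 0.26 and 0.53 in Ler replicates 1 to 4. Replicate 4 was thus highest and replicate 1 lowest in both genotypes, as for PAP85. In the other processing enzymes, ALPHA-VPE, GAMMA-VPE and DELTA-VPE, replicate 4 was not the highest array of either genotype. MAG2, which acts in the transport of storage proteins out of the endoplasmic reticulum, was lowest in replicate 4 of both genotypes (-0.48 in ttg1 and -0.08 in Ler).

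Of 19 genes for late embryogenesis abundant proteins and related late seed proteins 13 were measured, and none passed in either test in limma (unadjusted p under 0.05 for 2 between genotypes and 1 by replicate number). Their median difference between replicate 4 and the mean of replicates 1 to 3 was 0.03 on the log2 scale, against 1.13 for the 6 storage genes and 0.02 over all probe sets. The smallest p between genotypes belonged to AT4G36600 and AT4G21020, each with a log2 difference of -0.22 (adjusted p 0.128 and 0.174 in limma), and to AT3G53040 and LEA18, with 0.2 and 0.17 (adjusted p 0.226 and 0.227 in limma). Replicate 4 was the highest array of both genotypes in 4 of the 13 genes, AtLEA4-1, LEA4-5, AT5G44310 and M10, against 12.5% of all probe sets. AtLEA4-1 stood at 1.8 in replicate 4 of ttg1 and 0.8 in replicate 4 of Ler. LEA18 and M17, by contrast, stayed between -0.2 and 0.34.

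Of 18 transcription factors of maturation only BZIP53, EEL and AGL67 were measured, and none passed in either test in limma (0 at an unadjusted p under 0.05 in each). EEL, a bZIP factor that acts on late seed genes, was highest in replicate 4 of both genotypes, at 0.72 in ttg1 and 0.1 in Ler. BZIP53, a bZIP factor that activates storage protein genes, stood at -0.16 in replicate 4 of both genotypes. Of 20 genes of oil synthesis the acyl-ACP thioesterases FaTA and FATB were measured, with replicate 4 at 0.27 and -0.16 in ttg1 and at -0.01 and -0.24 in Ler, and neither passed in either test in limma (unadjusted p under 0.05 for 0 between genotypes and 1 by replicate number). None of the 5 genes for 2S albumins had a single-gene probe set, and they were not analysed here.

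**Figure D4:**
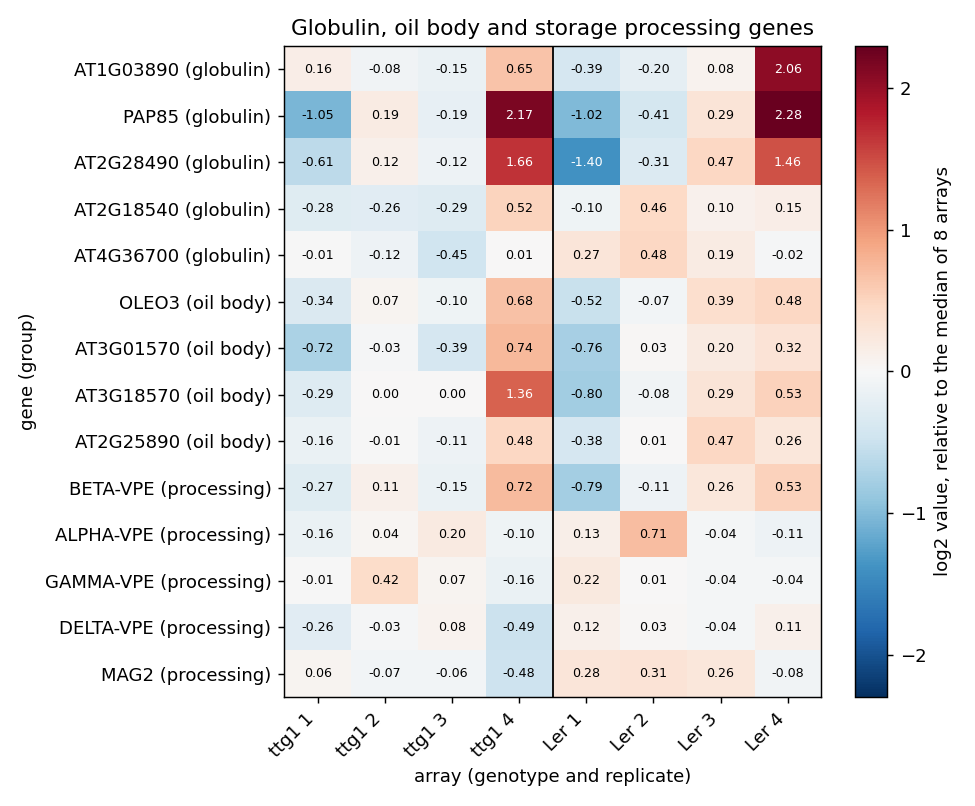
Log2 values of the measured globulin, oil body and storage processing genes (rows) in the 4 ttg1 and 4 Ler arrays (columns), relative to each gene's median over the 8 arrays; red is above and blue below that median. The ttg1 4 and Ler 4 columns are red for PAP85 (2.17 and 2.28), AT2G28490 (1.66 and 1.46) and BETA-VPE (0.72 and 0.53), and blue for MAG2 (-0.48 and -0.08).

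The genes whose values most resembled the mean of the 6 genes were sought by Pearson r over the 8 arrays, without a test. The search covered 1234 single-gene probe sets with a range of at least 1 on the log2 scale, the 6 genes themselves left out. In ttg1 replicates 1 to 4 the mean of the 6 genes was -0.42, -0.03, -0.26 and 0.96, against -0.57, 0.01, 0.22 and 1.04 in Ler replicates 1 to 4. The 5 closest were AT3G63040 (r = 0.985), AT1G47540 (r = 0.973), AT4G10270 (r = 0.948), OLEO3 (r = 0.935) and AT5G01300 (r = 0.931). For AT2G28490 the closest were AT4G10270 (r = 0.996), AT1G47540 (r = 0.992) and BETA-VPE (r = 0.984), and for AT3G01570 they were OLEO3 (r = 0.961), AT3G63040 (r = 0.952) and AT1G62500 (r = 0.952). PAP85 shared its 3 closest, AT3G63040, AT1G47540 and AT4G10270, with the mean of the 6 genes. That mean includes PAP85 and is unscaled, so the genes with the widest spread, PAP85 first, weigh most in it.

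The remaining genes had other companions. The closest to AT1G03890 were AT1G04560 (r = 0.942), AT2G15010 (r = 0.915) and AT1G14950 (r = 0.847). AT1G04560 shared its high value in Ler replicate 4, at 2.52, against 1.12 in ttg1 replicate 4. The closest to AT4G36700 were AT5G16230 (r = 0.944), AT3G18790 (r = 0.938) and AT4G00270 (r = 0.929), with log2 changes of -0.4, -0.56 and -0.53 and adjusted p of 0.195, 0.136 and 0.0801 in limma. For AT2G18540 they were SDT (r = 0.841), AT3G25160 (r = 0.805) and AT1G51400 (r = 0.805).

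Few tissue markers had a single-gene probe set. Replicate 4 was the highest array of both genotypes for LHCB4.1, AGL28 and IKU2, against 12.5% of all probe sets. Of 5 markers of photosynthetic tissue, RCA and LHCB4.1 were measured and were highest in ttg1 replicate 4, at 0.64 and 0.83. LHCB4.1 had log2 values of -0.17, 0.22, 0.13 and 0.83 in ttg1 replicates 1 to 4, against -0.5, -0.09, -0.21 and 0.09 in Ler replicates 1 to 4. Replicate 4 was thus its highest and replicate 1 its lowest array in both genotypes, as for PAP85, AT2G28490 and AT3G01570 (test of replicate number in limma, unadjusted p 0.0031, adjusted p 0.387). RCA in Ler replicate 4 stood at -0.1, within the other Ler arrays. The mean of both markers ranged from -0.28 to 0.73 in ttg1 and from -0.25 to 0 in Ler. Of 10 endosperm markers, AGL62, AGL28 and IKU2 were measured, and their mean ranged from -0.07 to 0.25 in ttg1 and from -0.05 to 0.01 in Ler. AGL28 spanned only 0.3 on the log2 scale over the 8 arrays. IKU2 reached 0.53 in ttg1 replicate 4, but lay between -0.05 and 0.01 in Ler. The test of replicate number in limma gave an unadjusted p of 0.494 for AGL28 and 0.274 for IKU2. Of 5 silique wall markers, YAB3 and ALC were measured, and they differed in replicate 4. YAB3 had log2 values of 0.04, 0.17, 0.05 and 0.98 in ttg1 replicates 1 to 4, against -0.77, -0.54, -0.04 and -0.08 in Ler replicates 1 to 4, so that replicate 4 was the highest ttg1 array but not the highest Ler array (test of replicate number in limma, unadjusted p 0.0156, adjusted p 0.538). ALC stood at -0.6 in ttg1 replicate 4 and at 0.27 in Ler replicate 4. Their mean ranged from -0.3 to 0.2 in ttg1 and from -0.23 to 0.1 in Ler. It hides differences ttg1 minus Ler of opposite sign. The log2 difference was 0.67 for YAB3 (limma, unadjusted p 0.0136, adjusted p 0.116) and -0.47 for ALC (limma, unadjusted p 0.049, adjusted p 0.215). Of 11 seed coat markers 4 were measured, BAN, DFR, ARA12 and AT3G50990, and their mean ranged from -2.05 to -1.84 in ttg1 and from 1.65 to 1.91 in Ler. That mean was set mainly by BAN and DFR, with log2 differences ttg1 minus Ler of -6.43 and -6.99. The difference was -1.39 for AT3G50990 (adjusted p 0.0017 in limma) and only -0.11 for ARA12 (adjusted p 0.606 in limma). The embryo patterning markers had no single-gene probe set. RNA integrity was read relatively, from 3' minus 5' signal of 3 control transcripts (actin, GAPDH and ubiquitin); it was -0.078 in replicate 4 of ttg1 and 0.001 in replicate 4 of Ler, within the range of the other arrays (-0.101 to 0.171). The part of other tissues in the storage transcripts was not tested.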

How the data were processed

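The authors deposited log2 values made with RMA, a step named in the submitters' processing notes; no software version, base or scale is given in the sources used here, and log2 was taken from RMA. The median over the 8 arrays is 0 for each probe set (within 5e-07), a centring found in the values. The sign was taken as a higher value for more signal. Of 22810 probe sets, 64 controls were left out. The platform annotation lists 1 gene for 13513, several for 503 and none for 8730 of the tested probe sets; 13436 matched RefSeq TAIR10.1, used for names and gene order only.

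The difference ttg1 minus Ler and the F test of replicate number were fitted on all 22746 probe sets with limma 3.58.1 in R 4.3.3 (lmFit, eBayes) and Benjamini-Hochberg adjustment at 0.05, tested on simulated data. Errors are moderated standard errors. Exact permutation tests enumerated all assignments or pairings. Beside the 6 genes, at most 4 genes per list (smallest limma p first), and the 5 or 3 genes with the highest r, were to be named; other list genes were added after their values were seen, for how they stood in replicate 4. The members and lists were chosen with earlier results of these data known. Alternatives were a replicate block, quantile normalization, array centring, robust eBayes, no moderation, array weights, single-gene probe sets only, and the omission of arrays. Quantile normalization was applied to the deposited centred values and gives all arrays the same distribution of them, so wide deviations of single arrays shrink. Signal over background is unknown in centred values, and no sequences were analysed here.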

Additional observations from a re-analysis of the deposited data

Results flagged for a closer look

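AT2G18540, a vicilin-like locus, stood at 0.52 in ttg1 replicate 4, far from the other ttg1 arrays, which lay between -0.29 and -0.26. The gap made up 0.967 of the range of the 4 ttg1 values, above Dixon's 95% critical value for 4 samples. It was the only such array in 12 sets of 4 values (6 genes in each of ttg1 and Ler), where chance marks about 1 in 20. The same array had the largest deviations over all probe sets (SD 0.245) and the lowest array weight (0.348).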

How the results depend on the processing

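Of 80 alternative fits between ttg1 and Ler for the 5 genes other than PAP85, 70 kept the direction and the side of the threshold, 9 changed sign without any call (adjusted p at least 0.351 in limma) and 1 passed, AT4G36700 with array weights (1 of 6 genes called there). PAP85, whose difference of 0.00 has no direction, was called in none of 16 alternatives; it was 0.32 with quantile normalization and 0.03 without both arrays of replicate 4, AT2G28490 was -0.11 with array weights, and AT1G03890 was 0.15 without both arrays of replicate 4. Leaving out 1 array gave -0.63 to 0.66 for PAP85, -0.28 to 0.68 for AT2G28490, -0.5 to 0.32 for AT1G03890 and -0.33 to 0.16 for AT3G01570.

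The fit of all 8 arrays called 400 probe sets higher and 900 lower. With the replicate number as a block it called 687 higher and 1283 lower, with array weights 786 and 1151, without moderation 168 and 409, and with fewer probe sets tested (single-gene only) 199 and 508. Leaving out 1 array gave 164 to 401 higher and 509 to 854 lower. The block called 0 of the 6 genes. The replicate numbers were not taken to pair the samples, since the labels give no pairing. The deviations of same-numbered arrays correlated at 0.08, 0.03, -0.31 and 0.48 for numbers 1 to 4 over all probe sets. Between ttg1 and Ler arrays of other numbers the correlations ranged from -0.58 to 0.45. The F test of replicate number groups arrays by that number in their titles alone.

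By replicate number, 15 probe sets and 2 of the 6 genes were called. With quantile normalization and without moderation it was 0 and 0, with array weights 1 and 0, and with single-gene probe sets only 2 and 1. Leaving out 1 array gave 0 to 139 probe sets and 0 to 3 of the 6 genes. The cause was not tested. The number of arrays limits the precision, and the signal over background is unknown.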
